A study of Homo sapiens with 6 samples.

Results

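The genes described here are 9 regulators and markers of the epithelial and mesenchymal states of carcinoma cells: the transcription factors SNAI1, SNAI2, ZEB1, ZEB2 and TWIST1, the intermediate filament vimentin (VIM), the epithelial splicing regulators ESRP1 and ESRP2, and the epithelial transcription factor OVOL2. They were taken by symbol, and all 9 were found among the 18678 genes of the deposited table. The tested cells were Cal27-shGRK2, a derivative of Cal27 carrying a short hairpin RNA against GRK2, a kinase of activated G protein-coupled receptors. The cells set against them were Cal27, an established human line of tongue squamous cell carcinoma. Cells of both groups grew in DMEM with 10% serum and were harvested at 70% confluency for stranded mRNA sequencing. The labels do not state whether Cal27 carried a control vector, or how many hairpins or clones stand behind Cal27-shGRK2.

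In epithelial to mesenchymal transition (EMT), epithelial cells lose cell-cell adhesion and gain motility. The zinc finger proteins SNAI1 (Snail), SNAI2 (Slug), ZEB1 and ZEB2 and the basic helix-loop-helix protein TWIST1 bind E-box elements, and the SNAI and ZEB proteins repress epithelial genes such as CDH1, which encodes E-cadherin. OVOL2 restrains ZEB1 and holds cells in the epithelial state, ESRP1 and ESRP2 impose epithelial splice forms, and vimentin is the intermediate filament used most widely as a mesenchymal marker. In basal cells of stratified epithelium SNAI2 is normally present, so its RNA alone is no mark of a mesenchymal cell.

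Each group has 3 labelled libraries, but replicates 0 and 1 of Cal27-shGRK2 had the same value in all 18678 genes and were counted as 1 sample, against 55 to 94 genes with the same value in any other pair within a group. Values below are therefore given for 2 Cal27-shGRK2 libraries (the shared one, then replicate 2) and 3 Cal27 libraries (replicates 0, 1 and 2). Values are FPKM, fragments scaled by transcript length and library size, so levels of different genes may be set side by side, but the number of reads behind a value is unknown and no counting interval can be given. Libraries summed to 590163 and 615468 FPKM in Cal27-shGRK2 and to between 613330 and 644831 FPKM in Cal27. GRK2 (listed as ADRBK1) had 17.3 and 16.6 FPKM in Cal27-shGRK2, against 55.3, 59.4 and 55.8 FPKM in Cal27, so the target of the hairpin was lower in the libraries labelled with it. Separate cultures are not mentioned in the labels. The p-values therefore describe the spread among these libraries, and that spread may be technical.

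Upstream sequence is shown first for ZEB1 and VIM, whose levels differed most along with ZEB2, because SNAI, ZEB and TWIST proteins bind E-boxes. RefSeq promoters (GRCh38.p14, the hg38 assembly) were at hand for 3 of the 9 genes, VIM, ZEB1 and ZEB2. Capitals mark CAGGTG or its reverse complement CACCTG, the E-box form preferred by SNAI and ZEB proteins, in the 250 bases before the start, both of plus-strand genes. The first is chr10:31318167-31318416, before the most upstream of 7 RefSeq starts of ZEB1 and within an exon of the antisense gene ZEB1-AS1, and the second is chr10:17227991-17228240, before the RefSeq start of VIM.
ZEB1: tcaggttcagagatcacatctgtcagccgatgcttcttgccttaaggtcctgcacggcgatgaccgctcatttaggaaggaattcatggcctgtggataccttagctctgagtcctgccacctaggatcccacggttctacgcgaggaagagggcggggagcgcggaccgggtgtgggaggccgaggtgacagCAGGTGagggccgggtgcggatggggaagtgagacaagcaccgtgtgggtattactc
VIM: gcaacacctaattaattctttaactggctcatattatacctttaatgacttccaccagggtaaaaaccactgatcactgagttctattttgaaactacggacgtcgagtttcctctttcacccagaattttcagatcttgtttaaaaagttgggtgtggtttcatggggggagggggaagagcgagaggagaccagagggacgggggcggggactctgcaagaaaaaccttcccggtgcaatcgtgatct

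The ZEB1 window held 1 CAGGTG, 57 bases before the start, and 2 of the 7 ZEB1 windows held at least 1. The VIM and ZEB2 windows held none. The other ZEB1 window with a match lay wholly within annotated exon sequence of ZEB1. The ZEB2 window lay wholly within annotated exon sequence of both ZEB2 and the antisense gene ZEB2-AS1. Over all 35116 promoters of the table, 17.5% of windows of this length held CAGGTG or CACCTG, and 61.8% held the general E-box CANNTG, which reads the same on both strands and includes CAGGTG. The VIM window held no CANNTG and the ZEB2 window held 1. A match is a description of the letters only.

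In Cal27-shGRK2 cells vimentin RNA was more than doubled in mean level relative to Cal27, and its group of libraries stood clear of the other. ZEB1 and ZEB2 were higher in both Cal27-shGRK2 libraries than in any Cal27 library, but at levels below 0.3 FPKM, and neither passed the test. SNAI2, the most abundant of the 5 EMT factors, was lower, while TWIST1 and SNAI1 had overlapping groups. ESRP1, ESRP2 and OVOL2 did not pass the test.

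**Figure D1:**
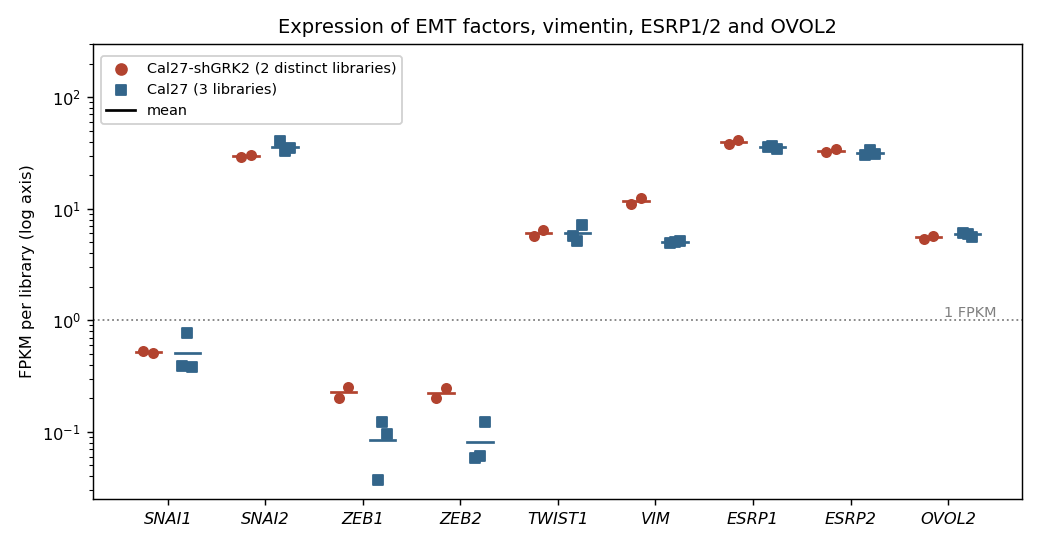
FPKM of each gene in every distinct library, on a log axis. Circles are the 2 Cal27-shGRK2 libraries and squares the 3 Cal27 libraries, bars are group means, and the dotted line is the 1 FPKM filter. VIM separates by the widest margin among the genes above 1 FPKM, and SNAI1, ZEB1 and ZEB2 lie below the line in all 5 libraries.

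Of the 9 genes, 6 averaged 1 FPKM or more across the libraries and were tested with limma on log2(FPKM + 1), a fit over 13377 genes with Benjamini-Hochberg adjustment over all of them and a threshold of 0.05. VIM passed as higher and SNAI2 as lower, and 4 did not pass. Over all genes tested 29.6% passed, 15% as higher (2008 genes) and 14.6% as lower (1949), so 2 of 6 is close to the background. After scaling all libraries to the same total, the split over all genes was 2927 higher and 1575 lower. Groups did not overlap in 3 of these 6 genes (SNAI2, VIM and ESRP1), against 53.3% of all genes tested.

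The vimentin gene VIM (chromosome 10 from 17228259 to 17237593, plus strand, GENCODE version 29 on hg38) encodes the type III intermediate filament of mesenchymal cells. It had 11.0 and 12.5 FPKM in Cal27-shGRK2, against 4.91, 5.02 and 5.16 FPKM in Cal27. Both Cal27-shGRK2 libraries were above every Cal27 library, whose highest value was only 1.05 times the lowest. The means were 11.7 ± 1.04 FPKM and 5.03 ± 0.127 FPKM (SD, n = 2 and 3), a ratio of 2.33. On the log2(FPKM + 1) scale the change was 1.08 ± 0.08 (SE; 95% interval 0.90 to 1.25, limma adjusted p = 9.5e-08). By exact permutation of the library labels the two-sided p was 0.1, which is the lowest value these group sizes allow. The call held in all 16 alternatives, with changes of 0.99 to 1.20.

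In level VIM was the fourth of the 9 genes in Cal27-shGRK2, above TWIST1 and OVOL2, and the sixth in Cal27, below both. In both groups it was below ESRP1, ESRP2 and SNAI2. More RNA per cell and more cells with the RNA cannot be told apart in these bulk samples. Exons of VIM share 641 bases with VIM-AS1 and 619 with AL133415.1 on the other strand. VIM-AS1 had 0.736 and 0.913 FPKM in Cal27-shGRK2, against 0.677, 0.546 and 0.581 FPKM in Cal27, levels far under those of VIM. The library kit keeps strand, but whether the authors' quantification used it is not stated.

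Vimentin is also a gene of fibroblasts, endothelium and blood cells, so their markers are given beside it. Of 12 fibroblast markers 5 were in the table, with sums of 4.62 and 4.53 FPKM in Cal27-shGRK2 and 4.49 to 4.98 FPKM in Cal27. The 1 tested, the collagen chain COL1A1, did not pass (-0.23, limma adjusted p = 0.078) and made up most of the sum. The receptor gene PDGFRB, under the filter, had 0.617 and 0.599 FPKM in Cal27-shGRK2, against 0.155, 0.292 and 0.0998 FPKM in Cal27. With a pseudocount of 0.1 and no filter its change was 1.38 (limma adjusted p = 0.017). The other fibroblast markers under the filter, COL1A2 (0.13), LUM (0.43) and COL6A3 (-0.07), did not pass in that fit (limma adjusted p = 0.77, 0.38 and 0.92). Of 10 endothelial markers 3 were in the table, and their sums were 7.21 and 7.10 FPKM in Cal27-shGRK2, against 4.04 to 4.47 FPKM in Cal27. Most of that was the cadherin CDH5, the 1 tested, with 7.01 and 6.80 FPKM in Cal27-shGRK2 and 3.50 to 3.97 FPKM in Cal27 (0.76, passed). The endothelial factor gene ERG went the other way, with 0.0317 and 0.0659 FPKM in Cal27-shGRK2, against 0.370, 0.420 and 0.466 FPKM in Cal27. Without a filter its change was -1.81 (limma adjusted p = 0.0026). The remaining endothelial marker, ESAM, went with CDH5, at 0.164 and 0.240 FPKM in Cal27-shGRK2. In Cal27 ESAM had 0.101, 0.0801 and 0.0847 FPKM, and without a filter it did not pass (0.67, limma adjusted p = 0.21). PDGFRB, COL1A2, LUM, COL6A3, ERG and ESAM were named after their values were seen. Of 11 blood cell markers 3 were in the table, with sums of 5.55 and 4.88 FPKM in Cal27-shGRK2 and 1.94 to 2.68 FPKM in Cal27. Most of these sums in Cal27-shGRK2 was the lysosomal protein CD68, the 1 tested, with 4.30 and 3.52 FPKM in Cal27-shGRK2 and 0.766 to 1.18 FPKM in Cal27 (1.29, passed). The authors' deposited table does not mark CD68 as significant (q = 0.25). CD14 had 0.527 and 0.732 FPKM in Cal27-shGRK2, against 0.706, 0.790 and 1.15 FPKM in Cal27, with overlapping groups. ITGAM had 0.724 and 0.636 FPKM in Cal27-shGRK2, against 0.465, 0.408 and 0.435 FPKM in Cal27. CD14 and ITGAM were under the filter and were named after their values were seen. The leading markers PECAM1, VWF and PTPRC were sought by symbol and were not found among the deposited genes. The part of such cells in the VIM difference was not tested. Of 12 epithelial markers 10 were in the table and 9 tested, of which CDH1 (0.57) and EPCAM (0.45) were higher and 5 were lower, among them the basal keratin KRT5 with 740 and 773 FPKM in Cal27-shGRK2 and 2073 to 2322 FPKM in Cal27. Their sums were 1488 and 1511 FPKM in Cal27-shGRK2 and 2791 to 3088 FPKM in Cal27. Without KRT5 the sums were 748 and 737 FPKM in Cal27-shGRK2 and 718 to 766 FPKM in Cal27. These similar sums hold changes in both directions, as CDH1 and EPCAM were higher. KRT14 had 0.235 and 0.160 FPKM in Cal27-shGRK2, against 19.3, 20.9 and 16.5 FPKM in Cal27 (-4.05, passed). TP63 (-1.51), ITGA6 (-0.48) and ITGB4 (-0.45) were also called lower.

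SNAI2 (chromosome 8, minus strand) encodes Slug, a repressor of epithelial genes that is also active in basal keratinocytes. Its FPKM was 28.8 and 30.1 in Cal27-shGRK2, against 40.3, 32.7 and 34.9 in Cal27. Both Cal27-shGRK2 values lay under the lowest Cal27 value, with the widest gap to Cal27 replicate 0. The means were 29.4 ± 0.922 and 36.0 ± 3.90 FPKM (SD, n = 2 and 3). The change was -0.27 ± 0.08 on the log2(FPKM + 1) scale (SE; 95% interval -0.45 to -0.10, limma adjusted p = 0.018), with an exact permutation p = 0.2 (two-sided). The call rests on single libraries: the adjusted p was 0.064 without Cal27 replicate 0, 0.15 without the shared Cal27-shGRK2 library and 0.074 without Cal27-shGRK2 replicate 2. The direction was lower in all 16 alternatives. The gene was also marked significant in the authors' deposited table, with a log2 fold change of -0.27 and q = 0.029.

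SNAI1 (chromosome 20 from 49982999 to 49988886, plus strand) encodes Snail, the inducible factor of the pair, and was present at far lower RNA levels than SNAI2. It had 0.535 and 0.511 FPKM in Cal27-shGRK2, against 0.386, 0.768 and 0.378 FPKM in Cal27. The Cal27-shGRK2 values lay between those of Cal27, where replicate 1 was 2.03 times the lowest. SNAI1 was below the filter. With a pseudocount of 0.1 and no filter its change was 0.09 ± 0.30 (SE; 95% interval -0.60 to 0.77, limma adjusted p = 0.87), an interval that leaves room for changes in either direction. The sum of SNAI1 and SNAI2 was 29.3 and 30.6 FPKM in Cal27-shGRK2, against 40.7, 33.5 and 35.2 FPKM in Cal27, and SNAI2 made up nearly all of it. The exact permutation p of the sum was 0.2 (two-sided).

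ZEB1 (chromosome 10 from 31318495 to 31529814, plus strand) and ZEB2 (chromosome 2 from 144364364 to 144524583, minus strand) are the paired zinc finger and homeodomain repressors that act late in EMT. ZEB1 had 0.202 and 0.254 FPKM in Cal27-shGRK2, against 0.0370, 0.122 and 0.0959 FPKM in Cal27. ZEB2 had 0.202 and 0.244 FPKM in Cal27-shGRK2, against 0.0586, 0.0608 and 0.122 FPKM in Cal27. For both genes the Cal27-shGRK2 libraries were above every Cal27 library, while the Cal27 libraries differed among themselves by 3.30 times for ZEB1 and 2.08 times for ZEB2. The ratio of means was 2.68 for ZEB1 and 2.78 for ZEB2, with an exact permutation p = 0.1 for each (two-sided), again the lowest possible. In mean level only 2.21% of the table's genes lay below ZEB1 and 1.89% below ZEB2.

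With a pseudocount of 0.1 and no filter, a fit of all 18678 genes in which 22.1% passed and 12.1% of those under 1 FPKM, 0 of the 3 low genes passed in either direction, and 5.87% of genes under 1 FPKM passed as higher. ZEB1 had a change of 0.85 ± 0.37 (SE; 95% interval 0.01 to 1.69, limma adjusted p = 0.14, unadjusted 0.047). ZEB2 had a change of 0.86 ± 0.36 (SE; 95% interval 0.05 to 1.66, limma adjusted p = 0.13, unadjusted 0.040). Over the 13 alternatives the change ran from 0.18 to 1.07 for either gene, lowest with a pseudocount of 1. The adjusted p ran from 0.084 to 0.41 for ZEB1 and from 0.047 to 0.37 for ZEB2, always in the higher direction. Groups did not overlap in 2 of the 3 low genes, against 40.4% of genes with a mean under 1 FPKM. The authors' deposited table marks both as significant and higher, with a log2 fold change of 1.34 (q = 0.018) for ZEB1 and 1.27 (q = 0.0027) for ZEB2. The authors mark 15.4% of all genes as significant, 8.28% as higher. Of the 9 genes 4 are marked in the authors' deposited table, with VIM as the other higher one and SNAI2 as the lower one. The sum of ZEB1 and ZEB2 was 0.404 and 0.498 FPKM in Cal27-shGRK2, against 0.0956, 0.183 and 0.218 FPKM in Cal27.

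Exons of ZEB1 share 366 bases with ZEB1-AS1 on the other strand, which was listed at 0.847 and 1.21 FPKM in Cal27-shGRK2 and at 0.906, 0.275 and 0.470 FPKM in Cal27. That antisense RNA had a higher value than ZEB1 in every library, and its groups overlapped. If the quantification ignored strand, reads of the shared bases could be assigned to either gene. Exons of ZEB2 share 1299 bases with the opposite-strand gene ZEB2-AS1, which was not analysed here. The ZEB2 values therefore carry an uncertainty of the same kind.

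ZEB RNAs are restrained by microRNAs of the miR-200 family and by miR-205 in epithelial cells. The miR-200 genes were not analysed here. MIR205HG, the host transcript of miR-205 (chromosome 1), had 120 and 112 FPKM in Cal27-shGRK2, against 146, 138 and 150 FPKM in Cal27. It fell by 0.32 ± 0.06 on the log2(FPKM + 1) scale (SE, limma adjusted p = 0.0012). The authors' deposited table does not mark it as significant (log2 fold change -0.25, q = 0.16). MIR205, listed as a gene of its own, had 54.1 and 45.0 FPKM in Cal27-shGRK2, against 50.4, 45.6 and 46.7 FPKM in Cal27. It did not pass (limma adjusted p = 0.67). Poly(A) libraries do not measure the mature microRNA. Whether the reads listed under MIR205 came from the precursor or from the host transcript was not tested. The RefSeq sequence of the mature microRNA (GRCh38.p14) is shown with the seed, bases 2 to 8, in capitals. The match to that seed in the longest annotated 3′ UTR of ZEB1 (2549 bases, GENCODE version 29) follows, with ATGAAGG in capitals. The ZEB1 UTR held 1 such match, starting at its base 818, and the longest annotated 3′ UTR of ZEB2 (5370 bases) held 0. Only full matches to bases 2 to 8 were searched, so sites with shorter pairing are not covered.
hsa-miR-205-5p: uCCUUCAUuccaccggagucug
ZEB1 site: aatatgtggtaacatATGAAGGa

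TWIST1 (chromosome 7 from 19020991 to 19117672, minus strand) encodes a basic helix-loop-helix factor of mesoderm and neural crest. It had 5.68 and 6.50 FPKM in Cal27-shGRK2, against 5.72, 5.16 and 7.17 FPKM in Cal27. The groups overlapped, with the spread of Cal27 spanning both Cal27-shGRK2 values. Its change was 0.02 ± 0.11 (SE; 95% interval -0.22 to 0.27, limma adjusted p = 0.90). Differences of up to about 1.21-fold higher or down to 0.857-fold, on the scale of FPKM + 1, lie within that interval, and the sign was positive in 11 of 16 alternatives. Exons of TWIST1 share 141 bases with the opposite-strand gene AC003986.2, which was not analysed here.

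ESRP1 (chromosome 8, plus strand) and ESRP2 (chromosome 16 from 68229111 to 68238102, minus strand) encode RNA-binding proteins that favour the epithelial splice forms of transcripts such as those of FGFR2, CD44 and CTNND1. ESRP1 had 38.1 and 41.6 FPKM in Cal27-shGRK2, against 35.9, 36.7 and 34.3 FPKM in Cal27. Both Cal27-shGRK2 values were above every Cal27 value, by a margin of less than the spread within either group. The change was 0.16 ± 0.07 (SE; 95% interval 0.02 to 0.30, limma adjusted p = 0.086) and did not pass. It passed under median-of-ratios scaling, a common total and quantile normalization (adjusted p = 0.040, 0.012 and 0.033), and with a further Cal27-shGRK2 library computed from the authors' condition value (0.032). ESRP2 had 32.2 and 34.1 FPKM in Cal27-shGRK2, against 30.4, 33.5 and 31.3 FPKM in Cal27, with overlapping groups. Its change was 0.06 ± 0.07 (SE; 95% interval -0.08 to 0.21, limma adjusted p = 0.53).

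Together ESRP1 and ESRP2 had 70.3 and 75.8 FPKM in Cal27-shGRK2, against 66.2, 70.3 and 65.5 FPKM in Cal27. The lower Cal27-shGRK2 value and Cal27 replicate 1 nearly coincided at 70.3 FPKM (exact permutation p = 0.2, two-sided). Neither splicing regulator had a lower mean in Cal27-shGRK2, and the lower bound of the interval was a change of 0.02 for ESRP1 and -0.08 for ESRP2. ESRP1 exceeded ESRP2 in every library, with ratios of 1.18 and 1.22 in Cal27-shGRK2, against 1.18, 1.09 and 1.10 in Cal27. Exons of ESRP2 share 149 bases with the opposite-strand gene NFATC3, which had 8.81 and 9.15 FPKM in Cal27-shGRK2 and 8.68 to 9.92 FPKM in Cal27. They also share 35 bases with AC020978.5 on the same strand, at 11.4 and 11.8 FPKM in Cal27-shGRK2 and 11.5 to 12.4 FPKM in Cal27.

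The ratio of VIM to the sum of ESRP1 and ESRP2 sets a mesenchymal marker against the epithelial splicing regulators within each library, so that it does not depend on library scaling. It was 0.157 and 0.165 in Cal27-shGRK2, against 0.0741, 0.0714 and 0.0788 in Cal27. The groups did not overlap and the ratio of the means was 2.15 (exact permutation p = 0.1, two-sided, the lowest possible). Even in Cal27-shGRK2, vimentin RNA thus stayed far below the RNA of the splicing regulators.

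**Figure D2:**
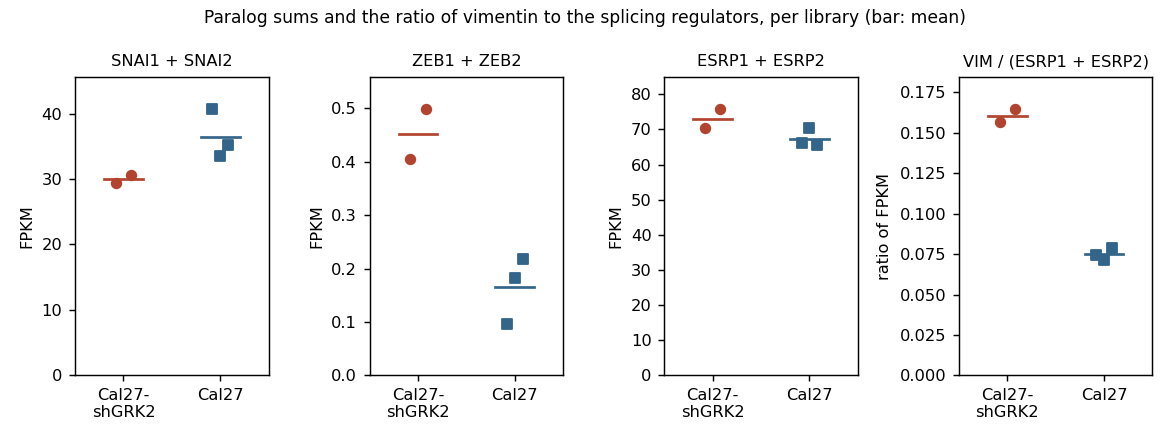
Sums of paralogs in FPKM and the ratio of VIM to ESRP1 + ESRP2, per library, with axes from 0. Circles are Cal27-shGRK2, squares Cal27 and bars group means. The VIM ratio is 0.157 and 0.165 in Cal27-shGRK2 and at most 0.0788 in Cal27, and the ZEB sum stays below 0.5 FPKM in all 5 libraries.

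OVOL2 (chromosome 20 from 17956979 to 18059188, minus strand) encodes a zinc finger repressor of ZEB1. It had 5.36 and 5.71 FPKM in Cal27-shGRK2, against 6.05, 5.98 and 5.61 FPKM in Cal27. The groups overlapped through Cal27 replicate 2. Its change was -0.07 ± 0.08 (SE; 95% interval -0.25 to 0.10, limma adjusted p = 0.55). Its paralog OVOL1 had 5.51 and 5.37 FPKM in Cal27-shGRK2, against 4.74, 5.28 and 4.32 FPKM in Cal27, and did not pass (0.16 ± 0.09, limma adjusted p = 0.22). Exons of OVOL2 share 59 bases on the same strand with SNX5, a far more abundant gene at 145 and 157 FPKM in Cal27-shGRK2 and 128 to 142 FPKM in Cal27, so part of the OVOL2 signal is uncertain.

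**Figure D3:**
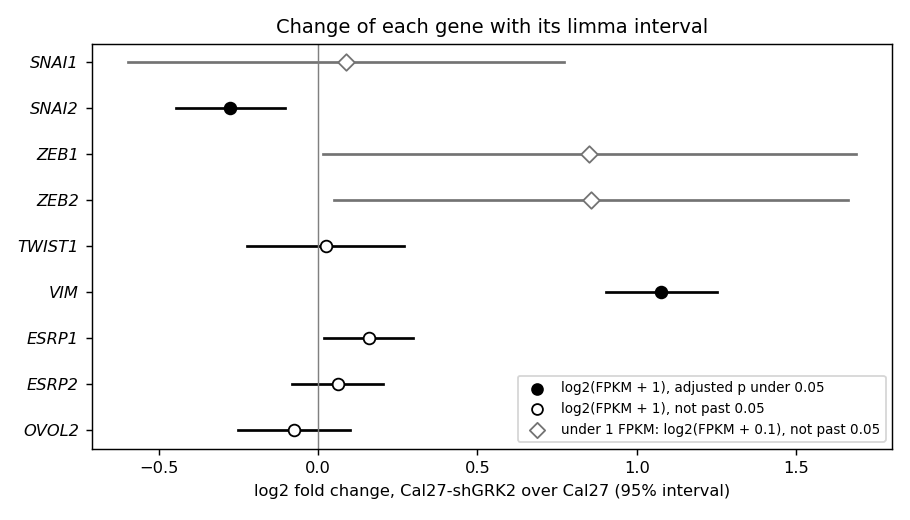
Log2 fold change of Cal27-shGRK2 over Cal27 with its 95% limma interval for the 9 genes. Filled symbols passed an adjusted p of 0.05, and diamonds are the 3 genes under 1 FPKM, fitted with a pseudocount of 0.1. VIM (1.08) and SNAI2 (-0.27) are filled, and the intervals of ZEB1 and ZEB2 are the widest that exclude 0.

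The order of levels shows how far the EMT factors other than SNAI2 and TWIST1 were from the rest. In Cal27-shGRK2 it ran ESRP1, ESRP2, SNAI2, VIM, TWIST1, OVOL2, SNAI1, ZEB1 and ZEB2. There TWIST1 and OVOL2, and ZEB1 and ZEB2, overlapped as neighbours. In Cal27 it ran SNAI2, ESRP1, ESRP2, TWIST1, OVOL2, VIM, SNAI1, ZEB1 and ZEB2. There SNAI2 and ESRP1, TWIST1 and OVOL2, and ZEB1 and ZEB2 overlapped as neighbours. No run of 31 bases was shared between annotated transcripts of any pair of the 9 genes, so exchange of reads between these paralogs is limited to shorter matches.

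The genes with the most similar profiles over the 5 libraries were found by the root mean square distance between deviations of log2(FPKM + 1) from the Cal27 mean. For VIM they were CCDC69 (distance 0.021), MAOA, which encodes monoamine oxidase A (0.043), and LINC00973 (0.048). CCDC69 averaged 3.47 FPKM in Cal27-shGRK2 and 1.08 FPKM in Cal27. For SNAI2 they were AC000068.9, the mitotic gene NEDD1 and the malic enzyme gene ME2, with distances of 0.036 to 0.040. For ESRP1 they were AHCYL1, SPDYE3 and NCOA6, for ESRP2 LTBP3, GPS2 and SP1, for OVOL2 CDCA7L, SLC35B1 and CYB5D1, and for TWIST1 TSPAN31, STK36 and RP11-66N24.3. These lists describe 5 libraries only.

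Of 18 other EMT transcription factors listed, 13 were in the table and 10 tested, of which 6 rose, 2 fell and 2 did not pass, against 15% higher and 14.6% lower over all genes tested. The median log2 fold change of the list was 0.52, against -0.01 over all genes tested. Lists here and below were chosen with earlier results of these data known, so their shares and medians are descriptions only. ETS1, an ETS-family factor of invasive cells, had 12.9 and 14.0 FPKM in Cal27-shGRK2, against 5.09, 6.45 and 5.28 FPKM in Cal27 (1.13 ± 0.09, SE, limma adjusted p = 2.2e-07). The AP-1 subunit FOSL1 (0.91) and the progenitor factor SOX9 (0.84) also rose. TCF3, which encodes the E-box proteins E12 and E47, fell by 0.35, but is not marked significant in the authors' deposited table (q = 0.074). The other that fell, FOXC1 (-0.39), was named after its value was seen. The paralog SNAI3 was below the filter, at 0.288 and 0.366 FPKM in Cal27-shGRK2 and 0.138 to 0.247 FPKM in Cal27.

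Among epithelial regulators, 13 of 18 were tested, 1 rose, 3 fell and 9 did not pass (median -0.05, and 0.01 under a common total). The share that passed, 30.8%, is near the 29.6% of all genes tested. GRHL1, a grainyhead factor, rose by 0.48. TP63, the master factor of basal squamous cells, had 10.5 and 10.5 FPKM in Cal27-shGRK2, against 32.0, 32.1 and 31.4 FPKM in Cal27 (-1.51 ± 0.06, SE, limma adjusted p = 1.4e-10). ELF3 (-0.82) and TFAP2C (-0.33) also fell, of which TFAP2C is not marked significant in the authors' deposited table (q = 0.13). GRHL2, which opposes ZEB1, did not pass (-0.05 ± 0.07, limma adjusted p = 0.63).

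Of 30 epithelial genes known as targets of SNAI and ZEB repression, 27 were tested, 12 rose, 4 fell and 11 did not pass. Thus 59.3% passed, against 29.6% of all genes (15% higher, 14.6% lower), and the median was 0.14. CDH1 had 105 and 99.2 FPKM in Cal27-shGRK2, against 66.8, 72.2 and 66.9 FPKM in Cal27 (0.57 ± 0.06, SE, limma adjusted p = 5.6e-06). The membrane protease PRSS8 (0.80), occludin, OCLN (0.80), and the claudin CLDN3 (0.70) rose most. CLDN1 (-0.95), desmoplakin, DSP (-0.63), and P-cadherin, CDH3 (-0.24), fell, of which CDH3 is not marked significant in the authors' deposited table (q = 0.18). The count that fell was 2 under a common total, with limma without trend, and without Cal27-shGRK2 replicate 2.

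Of 28 mesenchymal genes, 19 were tested, 12 rose, 1 fell and 6 did not pass, against 15% higher and 14.6% lower over all genes, and the median was 0.57. Genes with changes above that of VIM included COL6A2 (2.89) and COL6A1 (1.68), which encode chains of collagen VI, and fibronectin, FN1 (1.23). A further collagen VI gene, COL6A3, counted among the fibroblast markers, was under the filter with overlapping groups. It had 0.162 and 0.153 FPKM in Cal27-shGRK2, against 0.141, 0.277 and 0.116 FPKM in Cal27. The 1 that fell was TAGLN (-1.07), named after its value was seen and not marked significant in the authors' deposited table (q = 0.065). Without Cal27 replicate 1 none of the list was called lower, as the mean of TAGLN was then under the filter.

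Genes of vimentin's own class were few in the table. Of 15 other type III and IV filament genes, lamins and partners, 10 were present and 6 tested. The 10 include the antisense gene VIM-AS1, which was under the filter. Of the tested genes 1 was higher, 2 were lower and 3 did not pass, where 15% of all genes were higher and 14.6% lower. The filament linker plectin, PLEC, rose by 0.29, and LMNA (-0.28) and the kinase gene PAK2 (-0.24) fell. None of these named genes is marked significant in the authors' deposited table (q = 0.097, 0.31 and 0.059). None of the list was called higher with limma without trend or without either Cal27-shGRK2 library, and without the shared Cal27-shGRK2 library none of the list was lower.

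Of 28 other splicing regulators, 24 were tested, 1 rose, 3 fell and 20 did not pass, so 16.7% passed against 29.6% of all genes, with a median of -0.06 (0.02 under a common total). RBM47, an epithelial RNA-binding protein, rose by 0.25, and HNRNPF (-0.25), TRA2A (-0.24) and HNRNPM (-0.23) fell. None of these named genes is marked significant in the authors' deposited table (q = 0.14, 0.075, 0.086 and 0.56). Without the shared Cal27-shGRK2 library 0 of the list fell, and 7 did with the further library computed from the authors' value. None rose without Cal27-shGRK2 replicate 2. RBFOX2, which acts in mesenchymal splicing, did not pass (0.07 ± 0.07, limma adjusted p = 0.47).

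Of 32 genes whose transcripts ESRP proteins splice, 30 were tested at gene level, 9 rose, 9 fell and 12 did not pass (median 0.11, and -0.07 with the filter at 5 FPKM). That is 60% passing, against 29.6% of all genes. CD44, the hyaluronan receptor, rose by 1.05 and UAP1 by 0.60. FGFR3 (-1.12), FGFR2 (-0.50) and the integrin gene ITGA6 (-0.48) fell. Without the shared Cal27-shGRK2 library 4 fell. The table holds 1 value per gene, so splice forms could not be read from it.

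Of 34 genes that set the stability of SNAI and ZEB proteins or act as their corepressors, 31 were tested, 6 rose, 1 fell and 24 did not pass. The 22.6% that passed is below the 29.6% of all genes. The median was 0.01, and -0.03 to 0.06 over the alternatives. LOXL2, a lysyl oxidase that binds Snail, rose by 0.69, the Hippo kinase gene LATS2 by 0.47 and the ubiquitin ligase gene FBXL14 by 0.32. KDM1A, the histone demethylase LSD1 recruited by Snail, had 262 and 265 FPKM in Cal27-shGRK2, against 403, 392 and 375 FPKM in Cal27 (-0.56 ± 0.06, SE, limma adjusted p = 2.8e-06). The number that rose was 2 without the shared Cal27-shGRK2 library and 3 without replicate 2 of that group. SNAI protein levels, which these enzymes set, were not measured.

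**Figure D4:**
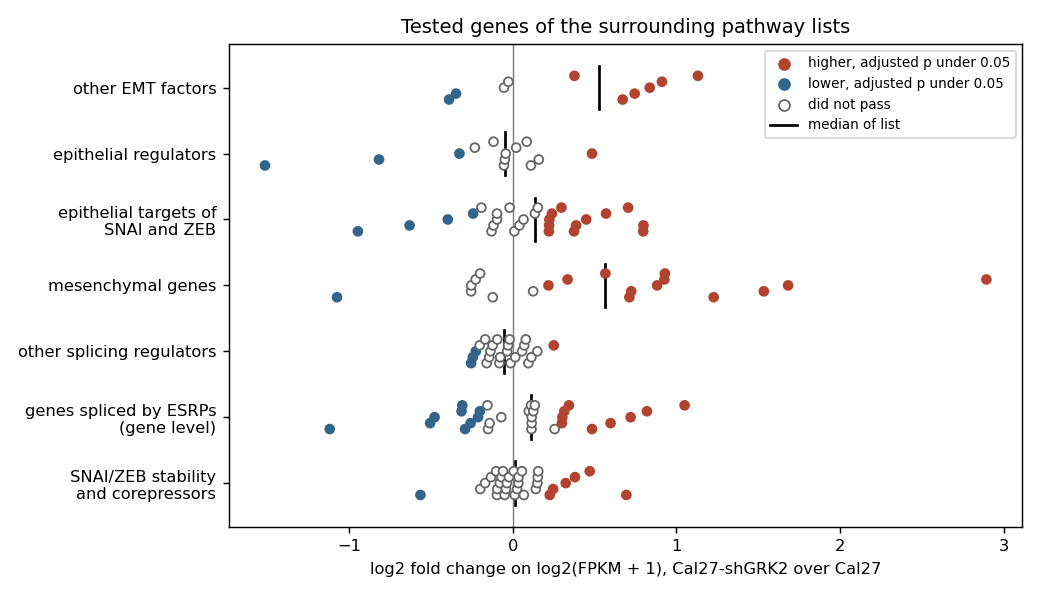
Log2 fold change on log2(FPKM + 1) of every tested gene in 7 lists around the EMT factors, Cal27-shGRK2 over Cal27. Red symbols are higher and blue symbols lower at an adjusted p under 0.05, open symbols did not pass, and black bars are list medians. Mesenchymal genes (median 0.57) and other EMT factors (0.52) lie to the right, whereas splicing regulators cluster around 0. The lists were chosen with earlier results of these data known.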

How the data were processed

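RNA from 3 Cal27 and 3 Cal27-shGRK2 libraries was sequenced, and the submitters' processing notes name hg38, Cuffdiff 2.2.1, TopHat2 2.1.0 and Bowtie2 2.2.6. The annotation, the strand setting and each tool's role are not given in the sources used here. Per the file headers, FPKM were deposited per library and per condition, beside the authors' log2 fold change, p-values, q-values and a test score. A deposited FPKM of 0.0001 was read as 0. Depth is unknown.

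The fit used limma 3.58.1 in R 4.3.3 on log2(FPKM + 1), for genes averaging 1 FPKM or more (trend, robust, two-sided, 3 residual degrees of freedom), after checking the fit on simulated data. Low genes were fitted with a pseudocount of 0.1 and no filter, and single values with exact permutation. A further Cal27-shGRK2 library was computed from the authors' condition value, which in Cal27 equals the mean of the columns in 13339 of 13339 genes averaging 1 FPKM or more (relative tolerance 1e-04). In 74 of 18678 genes the computed value was negative and was set to 0. The 16 alternatives covered pseudocount, filters, scaling, the limma form, replicate blocks, single libraries and that further library.

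The genes and lists were chosen with earlier results of these data known. Genes named are the 9, GRK2, CDH1, up to 3 called genes per list and direction with the largest change and at least 5 FPKM in the higher group, and the 3 closest profiles per tested gene. A gene that meets this rule is not reported here. Others are named where a count or a comparison needs them, after their values were seen. Coordinates are from GENCODE version 29 (hg38).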

Additional observations from a re-analysis of the deposited data

How the results depend on the processing

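VIM kept its call and direction in all 16 alternatives. SNAI2 lost its call under median-of-ratios scaling (-0.27, limma adjusted p = 0.050), a common total (-0.22, adjusted p = 0.12) and limma without trend (-0.27, adjusted p = 0.075). Leaving out single libraries gave -0.34 to -0.19 for SNAI2, and the number of genes of the 9 that passed as lower was then 0 to 1. ESRP1 gained a call under median-of-ratios scaling (0.16), a common total (0.22), quantile normalization (0.16) and the Cal27-shGRK2 library computed from the authors' condition value (0.16), so that 2 of the 9 passed as higher there. ZEB2 passed with limma without trend (0.86). The number lower was 0 wherever SNAI2 was lost. Over all genes, leaving out single libraries gave 1218 to 2205 higher and 1088 to 1843 lower.

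Whether the replicate numbers pair the samples is unknown, since the labels tie them to no shared batch. Which number the shared library carries is also unknown. Differences between replicates had a correlation across genes of 0.061 with the shared library as 0 and -0.038 as 1. With the replicate block and the shared library as 1, SNAI2 lost its call (-0.19, adjusted p = 0.099) and 0 of the 9 were lower. With it as 0 no call among the 9 changed. The blocks gave 2151 and 1747 genes higher and 1809 and 1734 lower.

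List counts that moved by over 1.5 times ran from 1 to 2 lower for other EMT factors, 0 to 2 higher for epithelial regulators, 2 to 4 lower for epithelial targets, 0 to 2 lower for mesenchymal genes, 0 to 3 higher and 0 to 7 lower for splicing regulators, 4 to 10 lower for ESRP-spliced genes, 2 to 8 higher and 1 to 2 lower for stability genes, and 0 to 2 higher and 0 to 3 lower for filament genes. Among cell type markers, fibroblast counts ran from 0 to 1 in each direction, endothelial counts likewise, and blood counts from 0 to 1 higher. The causes were not tested. Where 1 library of an arm was left, it was assumed to vary like the other group. With unknown depth, the FPKM of ZEB1, ZEB2 and SNAI1 carry an error that cannot be computed.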

Other observations

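A further Cal27-shGRK2 library, computed from the authors' condition value, is a value of no deposited column, and rests on that value being a mean of 3 libraries. For VIM it came to 11.7 FPKM, between the deposited 11.0 and 12.5 FPKM of Cal27-shGRK2 and above the 4.91 to 5.16 FPKM of Cal27. It was 0.188 FPKM for ZEB1, against at most 0.122 FPKM in Cal27, and 0.134 FPKM for ZEB2, against at most 0.122 FPKM. It was 30.8 FPKM for SNAI2, again under the lowest Cal27 value of 32.7 FPKM. SNAI1 came to 0.771 FPKM, close to the highest Cal27 value of 0.768 FPKM. ESRP1 came to 39.9 FPKM, ESRP2 to 32.4 FPKM, TWIST1 to 5.94 FPKM and OVOL2 to 5.83 FPKM.

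Other filament genes under the filter differed in direction, and were looked at after their values were seen. Nestin, NES, a filament of progenitor cells, had 0.626 and 0.653 FPKM in Cal27-shGRK2, against 0.301, 0.253 and 0.230 FPKM in Cal27. The neurofilament gene NEFL had 0.0401 and 0.0940 FPKM in Cal27-shGRK2, against 0.704, 0.618 and 0.449 FPKM in Cal27. Neither pair of groups overlapped, as in 40.4% of genes with a mean under 1 FPKM.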
